A study of Mus musculus with 20 samples.

Results

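The expression of 9 genes of fat breakdown and fatty acid handling was followed through a mouse series on sleep apnea and glucose metabolism. The genes were Pnpla2, Lipe, Mgll, Cidec, Aqp7, Lpl, Cd36, Fabp4 and Dgat1. Every probe set that the platform annotation assigns to these 9 symbols was taken, whatever its values, which gave 13 of the 12488 probe sets of the array, for 9 of the 8251 genes it names. Gene expression was measured as a hybridisation intensity per probe set on 20 arrays, 8 of subcutaneous adipose tissue and 12 of brain, heart, lung and skeletal muscle. The adipose arrays came in 4 groups of 2, titled Con or Glucose and Hyp or NonHyp. Hyp mice breathed intermittent hypoxia, with oxygen cycling from 20.9% down to 5%, for 16 hours daily on 5 days. The labels of the NonHyp arrays name both that exposure and intermittent room air, so NonHyp is read as room air from the title. The adipose mice were 12 weeks old. The labels name 2 strains for every array, C57BL-6J and C57BL-6J-Lep, a carrier of the leptin obesity gene that is written C57BL-6J-LepOb on the NonHyp arrays numbered 2. The labels leave unsaid which array came from which strain and what Con and Glucose mean. The titles also carry the codes s2 and s4, whose meaning is not given either, with 1 array of each code in every group. The other 12 arrays held 1 array for each of 4 tissues under each of 3 conditions (control, sleep fragmentation and hypoxia, the last with no schedule given), from C57BL-6J mice 20 weeks old. Whether the arrays of a group stand for different mice is not stated, so p-values reflect array-to-array spread, which may be technical, and the small number of arrays limits the precision.

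Fat is stored in adipocytes as triglyceride droplets and is released as fatty acids and glycerol when energy is needed. Adipose triglyceride lipase (Pnpla2), hormone-sensitive lipase (Lipe) and monoglyceride lipase (Mgll) act in turn on the droplet, the droplet protein Cidec favours large droplets and storage, and the aquaglyceroporin Aqp7 lets glycerol leave the cell. In the other direction, lipoprotein lipase (Lpl) frees fatty acids from circulating lipoproteins at the vessel wall, Cd36 takes them up, Fabp4 binds them in the cytosol and Dgat1 builds them back into triglyceride. Heart and oxidative muscle are also large users of fatty acids delivered by Lpl and Cd36.

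Of the 13 probe sets, 11 had a mean level above the filter in adipose tissue and were tested there, covering all 9 genes. In the tissue panel 9 were tested, covering 8 genes. Probe set 161704_r_at of Cd36 lay at the floor of 97.7 intensity units on all 8 adipose arrays and between 6.72 and 17.8 in the panel, and 162316_f_at of Dgat1 lay at the floor on 4 of the 8. Both were left out of every test. Mgll 97510_at and Cidec 102016_at were tested in adipose tissue only. Unless another is named, Cd36, Dgat1 and Mgll below stand for 93332_at, 104371_at and 97511_at. By the RefSeq annotation of GRCm38.p6, Pnpla2 and Lipe lie on chromosome 7, Mgll and Cidec on 6, Aqp7 on 4, Lpl on 8, Cd36 on 5, Fabp4 on 3 and Dgat1 on 15.

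RefSeq promoter sequence was at hand for 6 of the 9 genes. The 250 bases before an annotated start are shown for Pnpla2 and Cd36, because both were far lower in brain than in the other 3 tissues (below) while their upstream sequences differ widely in composition. They are given from 5′ to 3′ on the gene's own strand, with matches on either strand in capitals, Pnpla2 at chr7:141454938-141455187 (plus strand) and Cd36 at chr5:17835897-17836146 (minus strand), both in GRCm38.p6.
Pnpla2: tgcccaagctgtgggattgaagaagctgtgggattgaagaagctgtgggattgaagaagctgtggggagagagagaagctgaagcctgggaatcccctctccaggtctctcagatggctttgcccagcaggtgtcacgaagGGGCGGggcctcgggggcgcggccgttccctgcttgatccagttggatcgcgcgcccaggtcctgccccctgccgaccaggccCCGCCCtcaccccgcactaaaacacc
Cd36: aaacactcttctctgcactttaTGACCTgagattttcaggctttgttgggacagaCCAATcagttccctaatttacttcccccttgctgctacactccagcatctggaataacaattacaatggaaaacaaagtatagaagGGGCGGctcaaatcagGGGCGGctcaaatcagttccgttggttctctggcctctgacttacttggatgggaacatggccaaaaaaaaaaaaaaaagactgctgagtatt
The Pnpla2 window held 63.2% G and C and 2 matches to GGGCGG, the core of a GC box. The Cd36 window, which lies inside the annotated span of the gene, held 43.2% G and C, with 2 matches to GGGCGG, 1 to CCAAT and 1 to AGGTCA, a motif of nuclear receptors. Neither held TATAAA or GTAAACA. Of 32851 RefSeq windows of the same length, 32.7% held GGGCGG, 33.8% CCAAT, 14% AGGTCA, 12.4% TATAAA and 3.17% GTAAACA, searched on both strands with overlaps counted. A match is a description of the letters in these windows and not a binding site.

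The trimmed mean intensity (2% of probe sets dropped at each end) was 800.3 to 800.7 on 19 arrays and was 2671 on the brain hypoxia array, so the panel was quantile normalized before any comparison. Adipose and panel arrays were scaled apart and are not compared by a test. All 7 adipocyte markers on the array lay above the floor on all 8 adipose arrays. Among the muscle arrays Ckm, Tnnt3, Pgam2 and Casq1 were high, while Acta1, at 564 to 1605, lay below its heart values of 4943 to 6424. The lung arrays carried cardiac transcripts, with Myh6 at 2194 to 2855 against 7.71 to 23.4 in brain and muscle. The brain control array held 12924 units of the airway gene Scgb1a1 and 7858 of Acta1, and the lung hypoxia array 9993 of Acta1. Neural markers summed to 48598 to 57679 on the 3 brain arrays. The ratio of 3′ to 5′ Actb probe sets was 0.0288 to 0.0635 on the lung arrays and 0.0343 on brain hypoxia, against 0.662 to 1.70 on the other 16 arrays. The same ratio for Gapdh was low in muscle, at 0.00899 with hypoxia, 0.0261 in the control and 0.264 with fragmentation, and was 0.136 on heart hypoxia and 0.443 on heart control, against 0.802 to 1.60 on the other 15. The part of these ratios in the tissue differences was not tested. In bulk tissue, fewer cells of a type and less RNA per cell cannot be told apart.

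Adipose arrays titled Glucose were first set against those titled Con, 4 arrays each. None of the 11 tested member probe sets passed the threshold of an adjusted p of 0.05, where 7.58% of all 7453 tested probe sets did (limma). The largest separation was in Cd36, the fatty acid translocase, which was above its Con values on all 4 Glucose arrays. The lipase Pnpla2 and the carrier Fabp4 had lower means on Glucose, but their arrays overlapped. Of the 11 differences 4 were above 0 and 7 below, with a median of -0.09 log2 against 0.04 over all probe sets tested.

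Cd36 read 2002 and 1509 on the Con Hyp arrays 1 and 2, 1941 and 1642 on Con NonHyp, 2326 and 2390 on Glucose Hyp and 2808 and 3380 on Glucose NonHyp. The lowest Glucose array thus lay above the highest Con array. The log2 means were 11.40 ± 0.25 on Glucose and 10.78 ± 0.19 on Con (SD, n = 4 arrays each), a difference of 0.61 ± 0.23 (standard error), or 1.53-fold, with a limma p of 0.0299 and an adjusted p of 0.158. Of all 7453 probe sets, 11.4% had every Glucose array above every Con array and 8.33% every Glucose array below, against 1 and 0 of the 11 member probe sets. The difference stayed between 0.50 and 0.78 under the 18 other settings and array omissions that were run. Its adjusted p under them ranged from 0.0990 to 0.516. It was 0.73 within the s2 arrays and 0.50 within the s4 arrays.

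**Figure D1:**
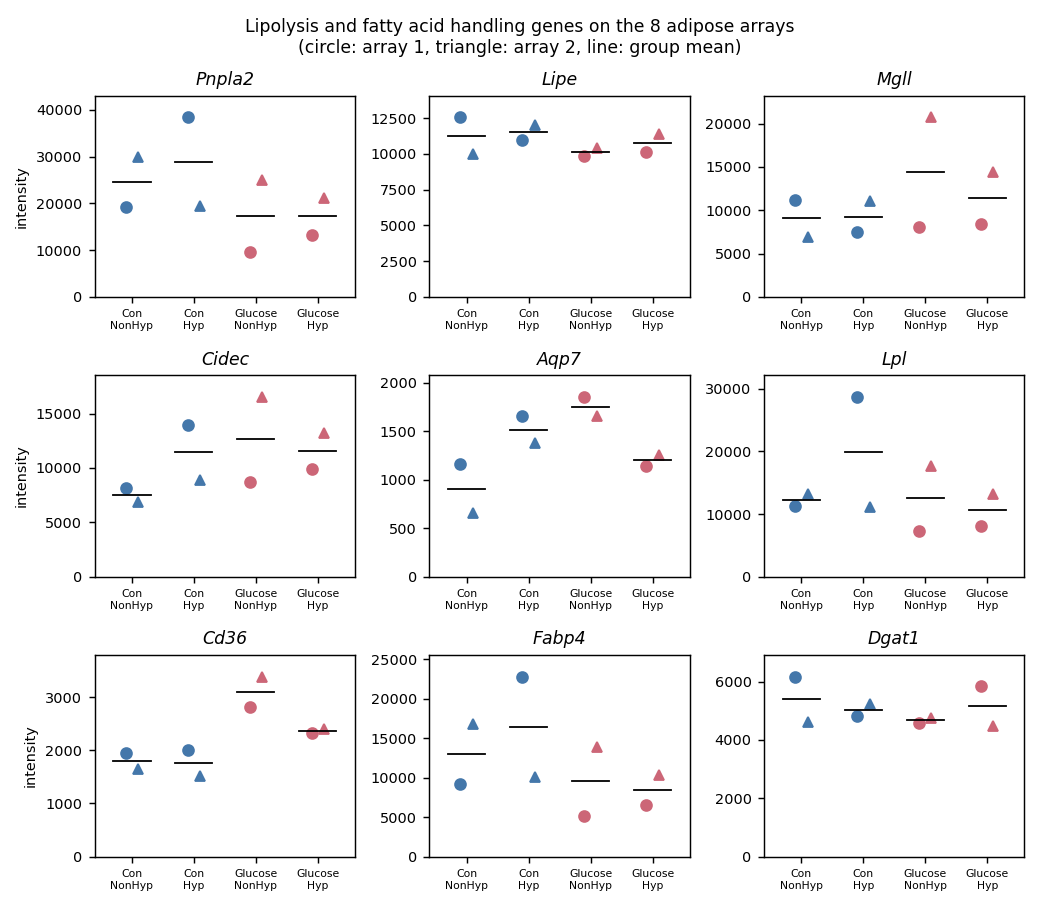
Intensity (linear axis from 0) of 1 probe set for each of the 9 genes on the 8 adipose arrays, by group. Circles are arrays numbered 1, triangles arrays numbered 2 and lines the mean of the pair. In Cd36 the 4 Glucose arrays, at 2326 to 3380, sit above the 4 Con arrays, at 1509 to 2002, while in Pnpla2, Fabp4 and Lpl the arrays of a group lie far apart.

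The lipases of the droplet did not separate the sides. Pnpla2, which starts triglyceride breakdown, read 38444, 19402, 19277 and 29864 on the Con arrays (Hyp 1, Hyp 2, NonHyp 1, NonHyp 2) and 13184, 21208, 9547 and 24926 on the Glucose arrays in the same order. The highest value was on a Con array and the lowest on a Glucose array, but the sides overlapped. The difference was -0.67 ± 0.41 log2, with a 95% interval of -1.63 to 0.29 and an adjusted p of 0.370. Lipe, the second lipase, ranged only from 9855 to 12575 over the 8 arrays, and its difference was -0.12 ± 0.22 with an interval of -0.63 to 0.39. The sign of Lipe turned under quantile normalization, to 0.22. Mgll, the last lipase, ranged from 6943 to 20749 with a difference of 0.42 ± 0.39. Its second probe set, 97510_at, read only 180 to 437 and differed by -0.09 ± 0.38, and the 2 probe sets of Mgll did not order the 8 arrays alike.

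Cidec and Aqp7 showed small positive differences and Dgat1 a small negative one, and none passed. Cidec ranged from 6827 to 13955 on Con and from 8728 to 16524 on Glucose, a difference of 0.36 ± 0.30. Aqp7, the glycerol channel, ranged from 657 to 1660 on Con and from 1142 to 1855 on Glucose, a difference of 0.33 ± 0.26. Dgat1 was the steadiest with Lipe, at 4473 to 6167 over all 8 arrays and a difference of -0.08 ± 0.23.

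Fabp4, the adipocyte fatty acid binding protein, read 22771, 10043, 9151 and 16776 on the Con arrays (Hyp 1, Hyp 2, NonHyp 1, NonHyp 2) and 6542, 10343, 5148 and 13943 on the Glucose arrays. In 3 of the 4 groups the 2 arrays lay further apart on the log2 scale than the means of the sides. The difference of -0.71 ± 0.45 had a 95% interval of -1.75 to 0.33 and an adjusted p of 0.382. Lpl 95611_at read 28662, 11070, 11334 and 13137 on Con and 8074, 13254, 7286 and 17697 on Glucose in that order, with a difference of -0.44 ± 0.42. The second Lpl probe set, 160083_at, differed by -0.09 ± 0.39.

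**Figure D2:**
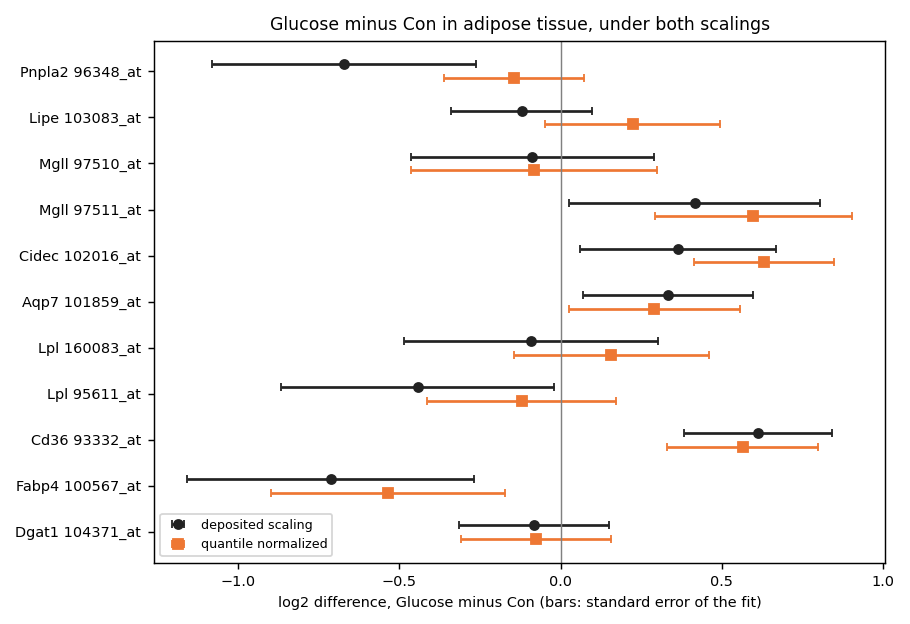
Log2 difference Glucose minus Con for the 11 tested member probe sets (points) with the standard error of the fit (bars), under the deposited scaling (circles) and after quantile normalization of the 8 arrays (squares). Cd36 stays near 0.6 under both, at 0.61 and 0.57, while Pnpla2 moves from -0.67 to -0.14 and Lipe crosses 0.

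For Pnpla2, Lpl and Fabp4 the direction depended on which arrays were used. Within the s4 arrays, Pnpla2 differed by -1.59 log2, Lpl 95611_at by -1.34 and Fabp4 by -1.75, with adjusted p of 0.105, 0.173 and 0.0883. Within the s2 arrays the same differences were 0.25, 0.45 and 0.32, with adjusted p of 0.744, 0.561 and 0.690. Lpl 160083_at likewise gave -0.96 within s4 and 0.78 within s2. The difference between the s2 and s4 values was not tested.

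Pnpla2, Fabp4 and Lpl also followed the upper end of each array. Pnpla2 and Fabp4 ranked the 8 adipose arrays in the same order (Pearson r 0.990, Spearman rho 1, and r 0.988 over 6 arrays without the 2 farthest from the median of Pnpla2), and Pnpla2 with Lpl 95611_at gave r 0.917, rho 0.905 and 0.826. These are descriptions over 8 arrays that share a group pairwise. The intensity at the 99th percentile of an array ran from 9167 on Glucose NonHyp 1 to 17326 on Con Hyp 1, the arrays with the lowest and the highest Pnpla2. Its log2 correlated at 0.979 with Pnpla2, 0.955 with Fabp4 and 0.904 with Lpl 95611_at, and at -0.28 with Cd36 and 0.34 with Lipe. After quantile normalization the SD of Pnpla2 over the 8 arrays was 0.20 log2 in place of 0.64, that of Lpl 95611_at 0.35 in place of 0.63 and that of Fabp4 0.53 in place of 0.70. By mean level Pnpla2 lay at percentile 99.9 of all probe sets, Lpl 95611_at at 99.1 and Fabp4 at 98.8. Quantile normalization gives equal ranks equal values on every array. The small SD of Pnpla2 after it was therefore in part fixed by the method. The correlation of Pnpla2 with Fabp4 was then 0.694, and that of Pnpla2 with Lpl 0.409. The part of the scaling in the order of these members was not tested.

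**Figure D3:**
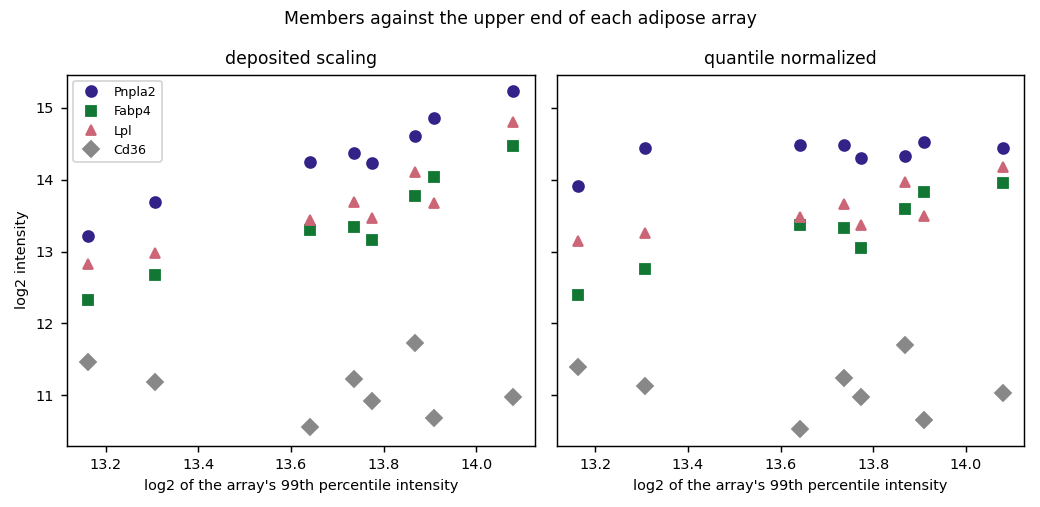
Log2 intensity of 4 members against the log2 of each adipose array's 99th percentile intensity (1 point per array and gene, 8 arrays), under the deposited scaling (left) and after quantile normalization (right). Pnpla2, Fabp4 and Lpl climb with the percentile on the left (r 0.979, 0.955 and 0.904), Pnpla2 is nearly flat on the right, and Cd36 has no such slope in either.

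Markers of some other cell types differed between the sides. The summed intensity of 5 B cell markers was 6909 to 10854 on the Con arrays and 973 to 1850 on the Glucose arrays, where 1 to 3 of the 5 lay at or under the floor, and all 4 tested were called lower. That of 7 brown adipocyte markers was 3588 to 84189 on Con and 1058 to 2718 on Glucose, with the highest values on the 2 Con arrays numbered 1, where Ucp1, the heat-producing uncoupling protein, read 10666 and 20246. On Glucose Ucp1 read -28.9 to 342 and 3 to 5 of the 7 lay at or under the floor, as did 5 of the 7 on Con Hyp 2. Of the 4 brown markers tested, 1 was called lower, Cidea, which is also among the pathway genes below. The 7 adipocyte markers summed to 74258 to 127390 on Con and 41158 to 98031 on Glucose, with 6 of 7 differences below 0 and none called. The 10 macrophage markers summed to 22370 to 37989 and 16734 to 30783. Neural markers, 6 in all, summed to 4325 to 5117 on Con and 1865 to 3221 on Glucose, with none of 3 tested called. Cardiac markers, 8 in all, summed to 1454 to 1928 and 2359 to 2917, with 1 of 3 tested called higher. On each array several markers of these lists lay at or under the floor. The 14 skeletal muscle markers ran from 18984 on Glucose NonHyp 1 to 258795 on Con NonHyp 2, and all 13 tested differences were below 0 with none called. The part of these cells in the values above was not tested. Without both Con arrays numbered 1, Cd36 differed by 0.78 and Pnpla2 by -0.58, and no member probe set passed.

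Of 84 other genes of lipolysis, fatty acid uptake and triglyceride synthesis, 53 were on the array and 42 were tested in adipose tissue. Of these 1 was called higher and 4 lower on Glucose, against 4.04% and 3.54% of all probe sets tested, and their median was -0.30 against 0.04. By role, 1 of 13 genes of lipolysis was called higher and 2 lower, 0 of 19 genes of lipoprotein lipase control and uptake were called, and 2 of 10 genes of triglyceride and glycerol synthesis were called lower. Ces1d, a carboxylesterase that hydrolyses triglyceride, read 16682 to 25750 on the 4 Con arrays and 5545 to 8463 on the 4 Glucose arrays. It fell by 1.59 ± 0.22 log2 (adjusted p = 0.0066). Cidea, a droplet protein abundant in brown fat, read 40893 and 19643 on the Con arrays numbered 1, 1301 and 3705 on those numbered 2 and at most 201 on Glucose. Its difference was -5.65 ± 1.04 (adjusted p = 0.0195), a size that depends on the floor because 1 Glucose array lay there. Pck1, which supplies glycerol phosphate for triglyceride, read 10499 to 26394 on Con and 4646 to 6560 on Glucose (-1.45 ± 0.33, adjusted p = 0.042). Agpat1, an acyltransferase of triglyceride synthesis, also with 1 Glucose array at the floor, fell by 2.07 ± 0.46 (adjusted p = 0.0377), which did not pass with the floor at percentile 10 (adjusted p = 0.0834). Gnai1, an inhibitory G protein subunit, rose by 1.02 ± 0.22 (adjusted p = 0.0325). Only Ces1d of these 5 passed in each of the 8 fits without 1 array. Cidea passed in 4 of the 8, Agpat1 in 2, Pck1 in 1 and Gnai1 in 0, so that 1 to 3 of the 42 passed in such a fit. Without both Con arrays numbered 1, which hold the high brown adipocyte markers, only Cidea passed, with a difference of -3.80, and within the s2 and the s4 arrays 0 and 1 of the 42 passed. Abhd5, the protein that activates the Pnpla2 lipase, read 2526 to 4086 on Con and 1494 to 2012 on Glucose (-0.88 ± 0.25, adjusted p = 0.0871) and was singled out after its values were seen. Apoc2 and Slc27a4, not called either, lay the other way. Apoc2 read 240 to 543 on Con and 629 to 1077 on Glucose. Slc27a4 read 45.4 to 379 on Con, with 1 array at the floor, and 492 to 787 on Glucose.

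The comparison of Hyp with NonHyp arrays asks what intermittent hypoxia did in adipose tissue. No member passed the test. All 11 differences lay between -0.21 and 0.26 log2, 9 of them above 0, with a median of 0.07 against 0.02 over all probe sets. The share called was 0 of 11 among the members and 0% of all 7453 probe sets (limma). At an unadjusted p under 0.05 there were 110 probe sets in all and 0 of the members. The intervals stayed wide: for Pnpla2 the difference was 0.15 with a 95% interval of -0.81 to 1.11, for Lpl 95611_at 0.21 with -0.78 to 1.19, for Fabp4 0.12 with -0.92 to 1.16, and for Lipe 0.06 with -0.45 to 0.57. A 2-fold rise, 1 on this scale, thus lay inside the intervals of Pnpla2, Fabp4 and Lpl 95611_at and a 2-fold fall outside them, while the interval of Lpl 160083_at (-0.85 to 0.99) held neither. That of Mgll (-1.001 to 0.82) just held a 2-fold fall. The closest limits were those of Lipe, Dgat1 (-0.52 to 0.56) and Cd36 (-0.75 to 0.32). In the 42 other pathway genes none passed either, and the smallest unadjusted p belonged to Vldlr, a lipoprotein receptor (-1.07 ± 0.41), Faah, a fatty acid amide hydrolase (0.95 ± 0.39), and Agpat5 (0.46 ± 0.23), each with an adjusted p of 1 by limma.

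Split by Con and Glucose, hypoxia again gave 0 calls among the members and among all probe sets (0%), with 218 and 159 probe sets at an unadjusted p under 0.05 and 0 members. Aqp7, the glycerol channel, lay in opposite orders on the 2 sides, though neither difference passed. It read 1660 and 1376 on Con Hyp against 1162 and 657 on Con NonHyp, and 1142 and 1257 on Glucose Hyp against 1855 and 1654 on Glucose NonHyp. The pairs did not overlap on either side, higher with hypoxia in Con (0.79 ± 0.37) and lower in Glucose (-0.55 ± 0.37). The difference between these effects was -1.34 ± 0.53, with an adjusted p of 0.999 by limma, where 246 probe sets in all and 1 of the 11 member probe sets had an unadjusted p under 0.05. In Con, Cidec too was higher on both Hyp arrays, at 13955 and 8900 against 8143 and 6827, and in Glucose Cd36 was lower on both, at 2326 and 2390 against 2808 and 3380. With 2 arrays against 2, groups did not overlap in these directions for 15.4% of all probe sets in Con (2 of 11 members) and 12.4% in Glucose (2 of 11), so such separation is frequent here. Skeletal muscle markers crossed as well, the other way round from Aqp7. With hypoxia all 13 tested were below 0 in Con (median -1.39 log2). In Glucose 12 were above 0 and 1 below (median 1.32), with none called on either side. The part of muscle content in the values of Aqp7, Cidec and Cd36 was not tested.

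In the tissue panel most members differed far more between tissues than between conditions. Lpl, Cd36 and Fabp4 were lowest in brain and highest or among the highest in heart. Pnpla2 and Lipe were low in brain. Pnpla2 was at like levels in heart, lung and muscle. Lipe was uneven in muscle, where the control and hypoxia arrays lay below all heart and lung arrays and the fragmentation array above them. Aqp7 was lowest in lung. Mgll was lower in muscle than in lung (0.47 log2), with a like difference from heart that did not pass. No tissue pair differed past the threshold in Dgat1, which on brain hypoxia differed from brain control by -0.37 log2, 1 array against 1. Against the mean of the other tissues, 6 of 9 member probe sets were called lower in brain, where 25.9% of all probe sets were (0 were called higher, where 23.5% were), and 6 of 9 higher in heart, where 19.1% were. All 3 brain arrays lay below all 9 other arrays for 6 of the 9 (9.2% of all probe sets), and all 3 heart arrays above for 3 (6.24%). In lung 1 was called higher and 2 lower (28.1% and 33.7% of all), and in muscle 4 higher and 1 lower (24.9% and 27.5%). The members' share was above the background in brain and heart. In lung and muscle the counts among 9 probe sets, 2 of them for Lpl, are too small to be set apart from the background shares. The counts in lung and muscle rested on single arrays: without the lung control array 1 member probe set was called in lung in place of 3, and without any 1 of the 3 muscle arrays 3 were called in muscle in place of 5.

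**Figure D4:**
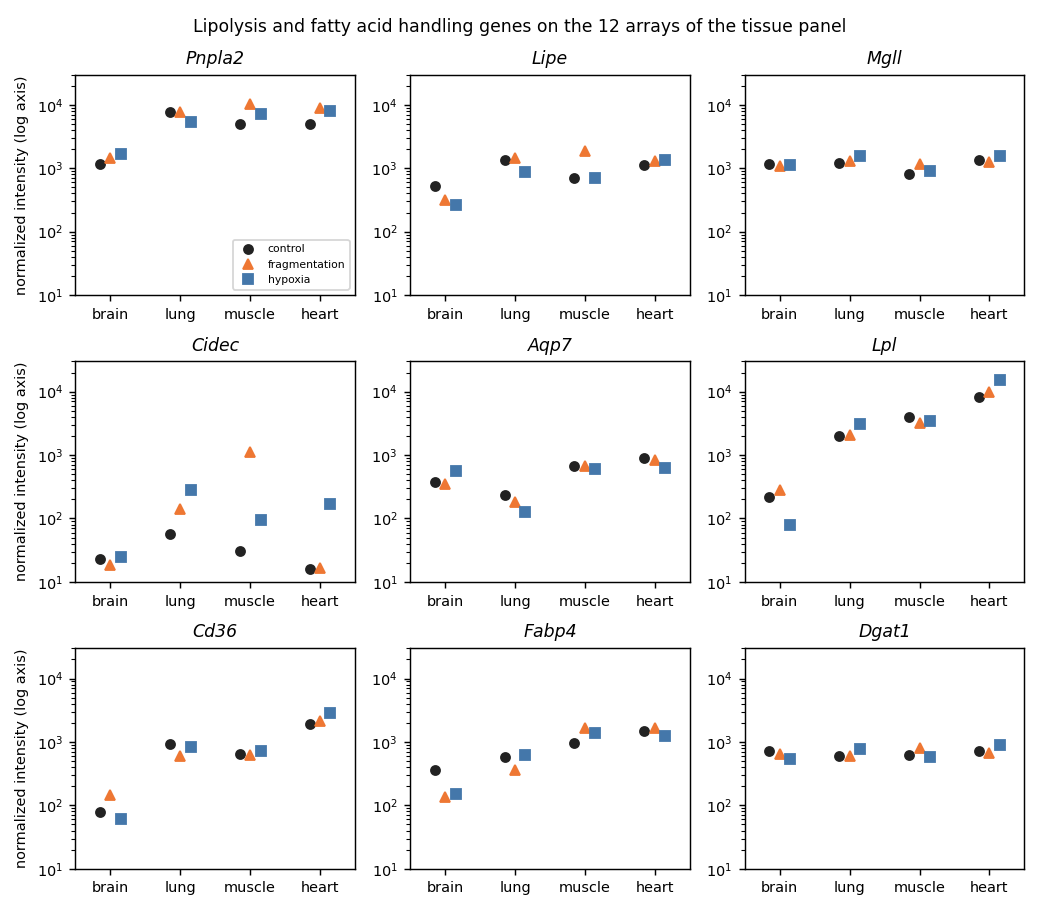
Quantile normalized intensity (log axis) of 1 probe set for each of the 9 genes on the 12 panel arrays, by tissue. Circles are control, triangles fragmentation and squares hypoxia, 1 array each. Lpl and Cd36 step up from brain (80.0 to 280 and 61.3 to 145) to heart (8343 to 15052 and 1916 to 2853), Mgll and Dgat1 vary little (823 to 1581 and 539 to 904), and Cidec is near the bottom except for some arrays, foremost muscle fragmentation at 1127.

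Lpl, the lipase of the vessel wall, had the widest range. On probe set 95611_at the control, fragmentation and hypoxia arrays read 8343, 9941 and 15052 in heart, 3931, 3257 and 3485 in muscle, 2019, 2097 and 3041 in lung and 219, 280 and 80.0 in brain. The 4 tissues did not overlap at any step of this order. Heart exceeded brain by 5.29 ± 0.32 log2 (39.2-fold, adjusted p = 5.9e-07), muscle by 1.58 ± 0.32 (2.98-fold) and lung by 2.15 ± 0.32 (4.45-fold). Muscle exceeded lung by 0.58 ± 0.32, which did not pass (adjusted p = 0.135), so these neighbours in the order were not told apart by the fit. Probe set 160083_at gave the same order, with heart above brain by 5.02 ± 0.26, above lung by 3.13 ± 0.26 and above muscle by 2.63 ± 0.26.

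Cd36, the uptake receptor, read 1916, 2105 and 2853 in heart, 921, 601 and 836 in lung, 655, 628 and 727 in muscle and 77.7, 145 and 61.3 in brain. Heart stood above every other tissue and brain below, while lung and muscle overlapped. Heart exceeded muscle by 1.62 ± 0.23 (3.07-fold, adjusted p = 7.4e-04), lung by 1.43 ± 0.23 (2.70-fold) and brain by 3.64 ± 0.23 (12.5-fold). Muscle minus lung was -0.19 ± 0.23 and did not pass.

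Fabp4, the cytosolic carrier, was high in both heart and muscle. It read 1490, 1678 and 1235 in heart and 970, 1644 and 1387 in muscle, which overlapped and differed by 0.15 ± 0.30. Lung read 584, 366 and 633 and brain 363, 135 and 153. Heart exceeded lung by 1.34 ± 0.30 (2.53-fold) and brain by 2.38 ± 0.30 (5.19-fold), and muscle exceeded lung by 1.19 ± 0.30 (2.29-fold). Lung exceeded brain by 1.04 ± 0.30 (adjusted p = 0.0158), and this call was lost, with adjusted p of 0.054 to 0.080, in each of 4 fits that left out the brain fragmentation, brain hypoxia, lung control or lung hypoxia array.

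Among the lipases, Pnpla2 read 1145 to 1685 in brain and 4897 to 10286 in the other tissues. Heart, lung and muscle exceeded brain by 2.24, 2.20 and 2.26 log2 (each ± 0.25, 4.73-fold, 4.59-fold and 4.79-fold). Among those 3 tissues the differences were at most 0.06 ± 0.25. Lipe read 259 to 530 in brain, 1134 to 1341 in heart, 886 to 1436 in lung and 695, 1890 and 688 in muscle. It was above brain by 1.57 ± 0.32 in heart, 1.52 ± 0.32 in lung and 1.25 ± 0.32 in muscle. Without the muscle fragmentation array the last was 0.83 and still passed. Mgll read 823 to 1581 over the 12 arrays and was lower in muscle than in lung by 0.47 ± 0.17 (adjusted p = 0.0343), a call that was lost without any 1 of the 3 lung arrays, the muscle control array or the muscle hypoxia array (adjusted p 0.055 to 0.142). Heart exceeded muscle in Mgll by 0.49 log2 (95% interval 0.12 to 0.87), which did not pass.

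Aqp7, the glycerol channel, was lowest in lung and not in brain. It read 894, 825 and 628 in heart, 682, 680 and 612 in muscle, 371, 355 and 558 in brain and 232, 179 and 129 in lung. The 3 lung arrays lay below all others, by 1.67 ± 0.21 against heart, 1.46 ± 0.21 against muscle and 0.92 ± 0.21 against brain (adjusted p = 1.2e-04, 2.1e-04 and 0.0043). Heart and muscle overlapped (0.21 ± 0.21). Heart minus brain, 0.75 ± 0.21 (adjusted p = 0.0137), did not pass when the brain control, brain fragmentation, heart control or heart fragmentation array was left out (adjusted p 0.057 to 0.071). Dgat1, the acyltransferase, read 539 to 904 over all 12 arrays, and no tissue pair differed by more than 0.23 ± 0.19, with none called. Its untested probe set, 162316_f_at, read 129 to 317, highest on muscle control and lowest on lung control.

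By pairs of tissues, heart had 7 of 9 member probe sets called higher than brain (23.4% of all probe sets), 5 higher than lung (27.7%) and 3 higher than muscle (13.8%), with 0 called lower in each (22.3%, 25.2% and 11% of all). Muscle had 6 called higher and 0 lower than brain (26.8% and 24.9%), and 2 higher and 1 lower than lung (31.8% and 29.8%). Lung had 6 called higher than brain and 1 lower (24.2% and 26.8%). These comparisons share arrays and are not independent of each other. Of the 31 calls for tissue pairs, 28 held under every other setting and array omission run, and the 3 that did not are those of Fabp4, Mgll and Aqp7 named above. The brain control and brain hypoxia arrays stand apart in the checks given earlier; without the first only the Aqp7 call between heart and brain was lost, and without the second only the Fabp4 call between lung and brain. Endothelial cells also make Cd36, and their markers were lower in brain (sum of 10 genes 5453 to 5828) than in heart (16157 to 18756) and muscle (7511 to 9456), and highest in lung (46359 to 49392). The 7 adipocyte markers were lower in brain too (sum 4966 to 5877, with 4 of 6 tested called lower) than in heart (12039 to 15490), lung (14445 to 16321) and muscle (10901 to 25904, with 3 called higher). Of the markers called in muscle, Slc2a4, the insulin-responsive glucose transporter, is also made by muscle and heart itself. The part of either cell type in the tissue order was not tested.

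The other genes of the pathway moved in both directions between tissues. Of 41 tested, 17 were called higher and 9 lower in heart than in the other tissues (19.1% and 19.3% of all probe sets). Fabp3, the fatty acid binding protein of muscle and heart, was higher by 3.22 ± 0.15, Vldlr, a lipoprotein receptor, by 1.33 ± 0.16, Plin4, a droplet coat protein, by 1.56 ± 0.21 and Agpat3 by 0.86 ± 0.13, while Acsl4 and Gnai1 differed by -1.31 ± 0.15 and -1.84 ± 0.21. In brain 9 were called higher and 15 lower (23.5% and 25.9%). Ces1d differed there by -4.55 ± 0.19, Cav1, the coat protein of caveolae, by -2.79 ± 0.17, Plin2 by -2.69 ± 0.19 and Fabp3 by -2.14 ± 0.15, and Gnai1 and the brain-type Fabp7 by 4.04 ± 0.21 and 3.92 ± 0.22. In lung 11 were higher and 15 lower (28.1% and 33.7%), led by Ces1d (3.73 ± 0.19), Fabp3 (-2.69 ± 0.15) and Cav1 (1.64 ± 0.17). In muscle 11 were higher and 13 lower (24.9% and 27.5%), led by Gnai1 (-2.55 ± 0.21) and Fabp3 (1.61 ± 0.15), with Lpin1, a phosphatidate phosphatase, at 2.15 ± 0.29.

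The panel's conditions ask whether sleep fragmentation or hypoxia changed the members in all 4 tissues alike. No such change passed: 0 of 9 member probe sets and 0% of all probe sets passed (limma), with 336 probe sets for fragmentation and 371 for hypoxia at an unadjusted p under 0.05, of which 1 and 0 were members. Pnpla2 had the largest condition difference, 0.56 ± 0.21 with fragmentation (95% interval 0.09 to 1.03, adjusted p = 0.970). It was higher on the fragmentation array in 4 of 4 tissues, by 1.79-fold in heart, 2.08-fold in muscle, 1.24-fold in brain and 1.03-fold in lung. With hypoxia, Pnpla2 was 1.24-fold higher over the tissues (0.31 ± 0.21), and higher in brain, heart and muscle but lower in lung (0.706-fold). For hypoxia the members' differences lay between -0.29 (Lipe) and 0.31 (Pnpla2). Those of Lpl 95611_at and Cd36 were 0.10 each, with intervals of -0.51 to 0.71 and -0.34 to 0.54. Lpl 95611_at read 8343 on the heart control array and 15052 on heart hypoxia, and 219 and 80.0 in brain, each 1 array against 1 with no test. Among the 41 other pathway genes none passed, and those of smallest p were Fabp2 (-1.84 ± 0.64), Prkacb (0.39 ± 0.14) and Lrp1 (-0.45 ± 0.25) with fragmentation and Got2 (-0.95 ± 0.35), Fabp3 (-0.43 ± 0.16) and Bscl2 (-0.31 ± 0.14) with hypoxia.

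Within single tissues each difference rests on 1 array against 1. On the scale with 97.7 added, the tested members reached 2-fold only in muscle, and Fabp4 came close in brain (0.506-fold with fragmentation). On the intensities alone some low brain values also fell by more than 2-fold. Fabp4 there read 363 on control and 135 with fragmentation, and Lpl 95611_at 219 on control and 80.0 with hypoxia. On the muscle fragmentation array 2 of 9 tested member probe sets were at least 2-fold above control, Lipe (1890 against 695) and Pnpla2 (10286 against 4897), where 3.97% of all probe sets were. Both probe sets that were too low to be tested in the panel but were tested in adipose tissue were at least 2-fold above control there as well. Mgll 97510_at read 535 on muscle fragmentation and 332 on muscle hypoxia against 64.5 on muscle control, and 283 to 499 in the other tissues, which on the scale with 97.7 added was 1.96 and 1.41 log2 above control. The muscle control array was thus its lowest. The tested Mgll probe set, 97511_at, did not reach 2-fold. Cidec read 1127 there against 31.0 on the muscle control and 95.8 on the muscle hypoxia array, and 16.2 to 282 elsewhere. Cidec was also 2.46-fold above control on lung hypoxia and 2.33-fold on heart hypoxia, on the scale with 97.7 added. The same array was high in adipocyte markers. Adipoq read 7177 on it, against 561 on muscle control and 3421 on muscle hypoxia, and Retn 2445 against 72.7 and 889. The 7 adipocyte markers summed to 25904, against 10901 and 17559. The heart hypoxia array too had more Adipoq (2349) than heart control (977), but its 7 adipocyte markers summed to 15381 against 15490. On lung hypoxia they summed to 16321, against 14450 on lung control. The part of fat tissue in the Cidec, Lipe and Pnpla2 values was not tested. On the muscle fragmentation array the other members lay on both sides of the muscle control. The median of the 9 tested member probe sets there was 0.29 log2, against -0.01 over all probe sets. Fabp4 was 1.63-fold higher (1644 against 970), Mgll 97511_at 1.35-fold, Dgat1 1.23-fold and Lpl 160083_at 1.08-fold (929 against 850). Lpl 95611_at and Cd36 were lower (3257 against 3931 and 628 against 655), and Aqp7 was level (680 against 682).

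**Figure D5:**
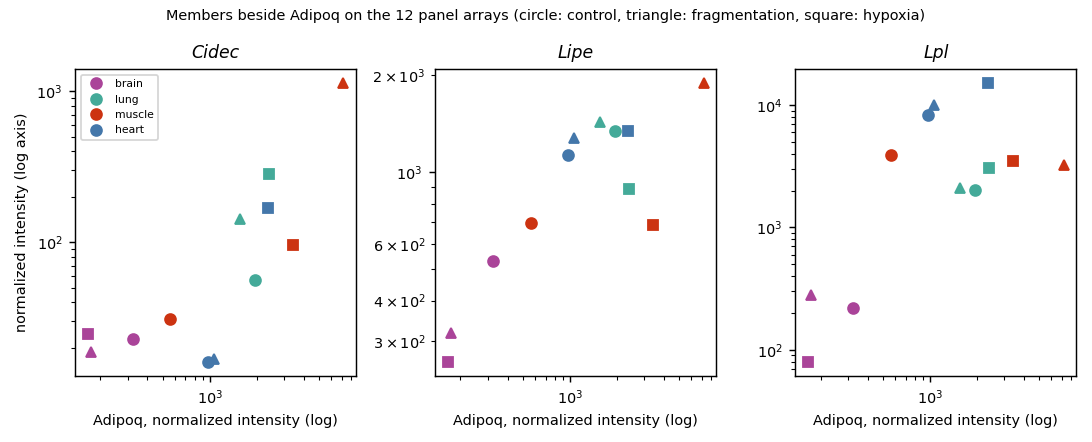
Quantile normalized intensity of Cidec, Lipe and Lpl against that of the adipocyte gene Adipoq on the 12 panel arrays (both axes log), coloured by tissue, with circles for control, triangles for fragmentation and squares for hypoxia. The muscle fragmentation array has the highest Adipoq (7177), Cidec (1127) and Lipe (1890), but not the highest Lpl, which is in heart.

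The genes whose log2 level followed a member most closely differed between the sets of arrays. Over the 8 adipose arrays Lpl 95611_at was followed by Dbi (Pearson r 0.990), Hba-a1 (0.977) and Adipoq (0.969), Fabp4 by Car3 (0.997), Rps28 (0.995) and Cst3 (0.995), Cd36 by Oxct1 (0.970), Atp6v1c1 (0.967) and Rnf11 (0.966), and Lipe by Clec16a (0.952), Smarcd2 (0.914) and Srpk1 (0.900). For Lpl and Fabp4 these r describe arrays that share the upper end given above. Over the 12 panel arrays, which form 4 tissues, Lpl was followed by Cd36 (0.976), Mapkapk2 (0.972) and Acads (0.971), and Cd36 by Idh2 (0.981), Gstk1 (0.977) and Lpl (0.976). There Fabp4 was followed by Ckmt2 (0.966), Pcsk5 (0.959) and Etf1 (0.957), and Lipe by Ifi27l2a (0.908), Nfkb2 (0.902) and Tnxb (0.898). Lpl and Cd36 were thus each among the 3 closest of the other over the panel, which was not the case over the adipose arrays, where their r was -0.04.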

How the data were processed

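The data are hybridisation intensities of 12488 probe sets on 20 mouse arrays. The authors deposited 1 linear intensity per probe set and array, scaled to a like trimmed mean on all arrays but 1, as the values themselves show. The summarisation method and software are not given in the sources used here. On the adipose arrays 17.5% to 21.2% of values were 0 or below, and none were in the panel.

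For this report, values of the 8 adipose arrays under 97.7 units, the percentile 20 of all positive values (6.61 on the log2 scale), were set to that floor before log2 was taken. The 12 panel arrays were quantile normalized together and log2(intensity + 97.7) was taken, so fold changes of dim probe sets are understated. Genes were named from the platform annotation, in which 10833 probe sets have 1 symbol, 396 several and 1193 none, and 66 control probe sets were left out. Probe sets with a mean level (panel: highest tissue mean) above the percentile 40 were tested, 7453 in each set. Adipose tissue was fitted with 4 group means (4 residual degrees of freedom) and the panel with tissue and condition as additive terms (6 residual degrees of freedom), so a tissue difference there uses the 3 conditions as its replicates. Tests were made with limma 3.58.1 (lmFit, eBayes) in R 4.3.3, with Benjamini-Hochberg adjustment over all probe sets tested and a threshold of 0.05. The fits were tested on simulated data. Figures were drawn with matplotlib 3.10.9.

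All probe sets of the 9 genes are reported whatever their values. Of the other pathway genes, up to 6 past the threshold by smallest p are named per comparison, and where fewer than 3 pass, up to 3 others by smallest p. For Lpl, Fabp4, Cd36 and Lipe the 3 genes of highest correlation are named. The genes, the lists and the alternatives (scaling, floor, filter, variance model, s code, replicate number, arrays left out) were chosen with earlier results of these data known.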

Additional observations from a re-analysis of the deposited data

Results flagged for a closer look

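A single array stood away from the others in Dgat1 104371_at. Among the 4 adipose arrays without hypoxia, Con NonHyp 1 read 6167, while the other 3 lay between 4581 and 4764, and its gap to the nearest made up 0.868 of the whole range, above Dixon's critical value at 95%. This was 1 of 44 such checks on the members, and chance alone would mark about 1 in 20. Aqp7 lay in opposite orders with hypoxia: both Con Hyp arrays lay above both Con NonHyp arrays and both Glucose Hyp arrays below both Glucose NonHyp arrays. The difference between the 2 effects was -1.34 log2 and did not pass after adjustment over all probe sets (adjusted p = 0.999 by limma). It ranged from -0.93 to -1.75 under the other settings and array omissions. Skeletal muscle markers also crossed between these arrays, as given above.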

How the results depend on the processing

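Of the 11 adipose member probe sets none passed in any comparison under any setting or array omission run. The replicate numbers did not pair the arrays over all groups. Deviations of same-numbered arrays correlated at 0.181 within Con and 0.415 within Glucose, but at -0.046 to -0.137 between Con and Glucose groups. In both Glucose groups the array numbered 1 is s4 and that numbered 2 is s2, so number and s code cannot be told apart there. The fit with a replicate block left each member difference as it was (Cd36 0.61, adjusted p = 0.197) and called 0 members, and it lowered the other pathway genes called for Glucose from 5 to 2. That count was 2 with no filter, 3 and 6 with the floor at percentile 10 and 30, 4 with the s code as a term, 6 with the trend and robust variance model and 5 after quantile normalization.

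Some small differences of Glucose minus Con changed sign. Within the s2 arrays they were 0.25 for Pnpla2, 0.18 for Mgll 97510_at, 0.78 for Lpl 160083_at, 0.45 for Lpl 95611_at and 0.32 for Fabp4. Within the s4 arrays they were -0.068 for Cidec and 0.13 for Dgat1. After quantile normalization they were 0.22 for Lipe and 0.16 for Lpl 160083_at, which also gave 0.052 without both Con arrays numbered 1. Over the fits without 1 array, the difference ran from -0.36 to 0.18 for Mgll 97510_at (above 0 in 3 fits), from -0.44 to 0.25 for Lpl 160083_at (above 0 in 4) and from -0.19 to 0.022 for Dgat1 (above 0 in 2). The causes were not tested.

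For the tissues, the member calls ranged from 1 to 4 in lung against the other tissues and from 3 to 5 in muscle when single arrays were left out. The 31 called tissue pair differences were lost in 13 of 527 alternatives and reversed in 0. With 2 arrays a group in adipose tissue and 1 array for each tissue and condition in the panel, differences within the intervals given above can go unseen.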
